A study of Mus musculus with 63 samples.

Results

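MicroRNAs carried by plasma exosomes (Exo-miRs) were compared between younger and older LS-G6pc-/- mice that had no liver lesion. LS-G6pc-/- mice lack G6pc, the gene of the catalytic subunit of glucose-6-phosphatase, in the liver, and model glycogen storage disease type 1a (GSD1a) in that organ alone. The 19 mice of 63 in the series were those labelled LS-G6pc-/- and NoTumor, meaning without hepatocellular adenoma, in age groups G1 to G4, and none of the 19 carried a diagnosis of amyloidosis. The early group held the 10 mice of G1 and G2 (4 mice of 1-3 months and 6 of 4-6 months) and the later group the 9 mice of G3 and G4 (5 of 7-9 months and 4 of 10-12 months). The ages in months are those the study's methods give for sample collection. The 12 wild-type (WT) mice of the same age groups, 6 early and 6 later, have no deletion and normal livers. Each mouse gave 1 plasma sample at sacrifice, so ages were compared between different animals, and the promoter or agent behind the liver deletion was not given in the sources used here. Other organs keep G6pc in this model. The series holds no expression of G6pc itself, so the genotype labels could not be checked against it here.

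A microRNA is a short RNA that guides an Argonaute protein to messenger RNAs, mostly through the pairing of its seed (bases 2 to 8), and lowers their translation or stability. Exosomes are small vesicles shed by many cell types, and those in plasma carry microRNAs of blood cells, platelets, endothelium, liver and other organs, so a plasma level does not name the releasing cell. In bulk samples of this kind a change in the number of vesicles of 1 source and a change in the microRNA content per vesicle cannot be told apart. Glucose-6-phosphatase makes free glucose from glucose-6-phosphate, and without it the liver stores glycogen and fat and, with age, can form adenomas. The comparison asked whether Exo-miR levels moved over the months before any lesion was recorded.

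The mature sequences below are from RefSeq (GRCm38.p6), with the seed in capitals. The first set holds the 8 Exo-miRs among those named here whose difference between early and later mice kept its sign under each alternative that gave it a value, apart from leaving out a mouse within a single run period, where miR-21 and miR-409-3p alone kept it. The alternatives that allow no missing mouse gave none for miR-345-5p and miR-409-3p, and 1 of the 2 gave none for miR-27a. Some alternatives changed only the test or which Exo-miRs were kept, and not the difference of means, so under those the sign could not turn. No seed is shared within this set.

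miR-203: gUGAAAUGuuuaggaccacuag
miR-21: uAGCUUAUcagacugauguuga
miR-27a: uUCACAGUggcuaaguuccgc
miR-26b: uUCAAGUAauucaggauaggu
miR-345-5p: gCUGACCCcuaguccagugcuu
miR-451: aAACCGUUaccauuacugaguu
miR-25: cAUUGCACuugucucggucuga
miR-409-3p: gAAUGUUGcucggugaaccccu

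These lie on chromosome 12 (miR-203, miR-345-5p and miR-409-3p), chromosome 11 (miR-21 and miR-451), chromosome 8 (miR-27a), chromosome 5 (miR-25) and chromosome 1 (miR-26b). miR-409-3p, at chr12:109743204-109743225 on the plus strand, belongs to the imprinted Dlk1-Dio3 cluster. The second set holds members of the let-7 family, which share 1 seed and had nearly equal differences, with miR-125b-5p, whose levels stood apart on the same cards.

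let-7b: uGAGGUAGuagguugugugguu
let-7c: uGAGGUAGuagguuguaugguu
let-7d: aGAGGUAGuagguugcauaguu
let-7e: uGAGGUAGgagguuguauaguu
let-7g: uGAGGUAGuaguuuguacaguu
let-7i: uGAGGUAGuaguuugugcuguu
miR-125b-5p: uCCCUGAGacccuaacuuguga

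The third set holds some of the microRNAs of the age-group and detection results, and others named there are not printed. The seed is shared by miR-29a and miR-29c, which were measured in different shares of the mice.

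miR-342-3p: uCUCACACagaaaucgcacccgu
miR-29a: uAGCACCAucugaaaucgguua
miR-29c: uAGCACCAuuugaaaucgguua
miR-574-3p: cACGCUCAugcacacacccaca
miR-193b: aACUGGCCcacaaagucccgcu

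Each card held 375 microRNA assays, and an assay counted as measured at a threshold cycle (Ct) of 14-32. The level of an Exo-miR was the average measured Ct of its card minus its own Ct, on the log2 scale, so that 1 unit is a doubling and a higher value is a higher level. The 61 Exo-miRs missing in at most 5% of the 63 mice were tested. Cards differed in depth, with 84 to 160 measured assays in the early mice (119.4 ± 27.2, SD, n = 10) and 103 to 192 in the later mice (142.9 ± 34.7, n = 9), a difference of 23.5 assays (p = 0.118, two-sided exact permutation test). Numbers of measured assays per card count measured control wells too. The cards were run in 3 calendar years, called run periods 1 to 3 here. Run period 1 held 3 later mice and no early mouse, run period 2 held 7 early and 4 later mice, and run period 3 held 3 early and 2 later mice and all 12 WT mice. The 3 cards of run period 1 (KO1096, KO1160 and KO1061) had 172 to 192 measured assays, more than any other of the 19. Without them the early and later cards differed by 3.8 assays (p = 0.775, exact permutation test). The difference was -13.5 within run period 2 (p = 0.279) and 39.3 within run period 3 (p = 0.4, exact permutation tests), so the later cards had fewer assays in the former and more in the latter.

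No Exo-miR differed between early and later LS-G6pc-/- mice at an adjusted p under 0.05 (0 of 61, 0.0% called, limma with Benjamini-Hochberg adjustment). The smallest adjusted p was 0.448, and 2 of 61 (3.28%) had an unadjusted p under 0.05 in limma, against 1 in the exact permutation test per Exo-miR. The mean was higher in the later mice for 46 of the 61 Exo-miRs (75.4%) and lower for 15, with a median difference of 0.61 and a range of -1.24 to 1.62. With the number of measured assays of the card as a covariate the majority turned, to 18 of 61 higher in later mice and a median of -0.19, again with 0 at an adjusted p under 0.05 and 5 at an unadjusted p under 0.05 (limma). For none of the 61 did the ranges of the early and later mice separate (0.0%). The median standard error of a difference was 0.624, so that a difference of the median size lay within its error. When any single mouse was left out no Exo-miR passed in limma, and the number at an unadjusted p under 0.05 ran from 0 (without KO1732, KO1767, KO1731, KO1160 or KO1061) to 11 (without KO1536), with 8 without KO1730 and 7 without KO1746 or KO1542. It was 3 without KO1508, 4 without KO1496, 5 without KO1492 or KO1510, 1 without KO1768, KO1096 or KO1541, and 2 without KO1650, KO1652 or KO1749.

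miR-203 is abundant in skin and other epithelia, and it had the smallest p. Its level ran from -3.91 over a median of -0.61 to 0.81 in the early mice and from -0.85 over 0.25 to 2.04 in the later mice. All 9 later mice lay above the early mean, although the ranges overlapped. The mean was -0.90 ± 1.48 (SD, n = 10) in early and 0.45 ± 1.10 (n = 9) in later mice. The difference was 1.35 (SE 0.62, 95% interval 0.09 to 2.60, p = 0.0365, adjusted p = 0.448, limma), against an exact permutation p of 0.0377. It was 0.76 within run period 2, 0.91 within run period 3 and 0.84 without run period 1, and the value of run period 3 was -0.21 without KO1541.

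miR-21, a microRNA found in most tissues and raised in many states of inflammation and fibrosis, ran from -1.11 over 0.99 to 3.64 in early mice and from 1.23 over 2.21 to 4.53 in later mice. Again all 9 later mice lay above the early mean of 1.23 ± 1.93 (SD, n = 10). The difference was 1.49 (SE 0.70, 95% interval 0.06 to 2.91, p = 0.0419, adjusted p = 0.448, limma), the higher values in the later group being those of KO1096 (4.53) and KO1160 (4.35) of run period 1. It was 0.46 within run period 2, 1.46 within run period 3 and 0.79 without run period 1, and the value of run period 2 was 0.06 without KO1732.

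miR-27a, which has known targets in adipocyte and lipid metabolism, had the largest difference, 1.62 (SE 0.83, adjusted p = 0.448, limma). Its early levels ran from -2.98 over 0.17 to 3.86 and its later levels from -0.95 over 1.40 to 4.27. The 3 cards of run period 1 held values of 3.81 to 4.27, and without them the difference was 0.52. Some cards of run period 2 were high too, KO1536 (3.86) and KO1508 (2.89) among early mice and KO1510 (2.86) among later mice. All of these cards, of both run periods, were low for miR-342-3p, as given by age group below. miR-26b, whose family includes miR-26a with the same seed, differed by 1.18 (SE 0.62), with early levels of -2.35 to 2.06 and later levels of -0.12 to 2.68, and by 0.64 without run period 1. The 2 members of this seed had differences of 1.12 and 1.18. miR-345-5p differed by 1.37 (SE 0.74), from early levels of -5.37 to 1.46 to later levels of -1.56 to 1.03. The lowest early value, in KO1652, was imputed (1 below the lowest measured level), since the assay was not measured on that card.

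miR-409-3p was the Exo-miR of the Dlk1-Dio3 cluster, a group of microRNAs expressed mostly in embryonic and neural tissue. It had the lower mean in later mice in each run period with both groups, by -1.60 in run period 2 and -1.59 in run period 3. Much of each value came from 1 mouse, since the difference was -0.65 in run period 2 without KO1542 and -0.35 in run period 3 without KO1652. Its early levels ran from -2.92 over -1.12 to 1.11 and its later levels from -5.64 over -2.85 to 0.59. The lowest of these, in KO1542, was imputed. Over all 19 mice the difference was -1.15 (SE 0.69, 95% interval -2.56 to 0.26, p = 0.107, adjusted p = 0.448, limma). With the missing value left out it was -0.74 (adjusted p = 0.553, limma), and with run period as a block and the imputed value kept it was -1.60 (p = 0.0417, adjusted p = 0.991, limma). Of the 39 assays of this cluster on the card, miR-409-3p was the 1 retained. Among the others, miR-494 was measured in 7 of 10 early and 9 of 9 later mice, miR-127 in 4 and 6, and miR-434-5p in 2 and 6.

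miR-451, a microRNA of the red cell lineage made without Dicer, was measured on every card. Its levels ran from 3.04 over 4.84 to 8.30 in early and from 5.04 over 6.23 to 8.84 in later mice, a difference of 1.08 (SE 0.66, adjusted p = 0.448, limma) that was 0.47 without run period 1. miR-25, from a cluster in an intron of Mcm7, differed by 0.93 (SE 0.61) and by 0.38 without run period 1, while miR-92a, which has the same seed, differed by 0.32 and -0.04.

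**Figure D1:**
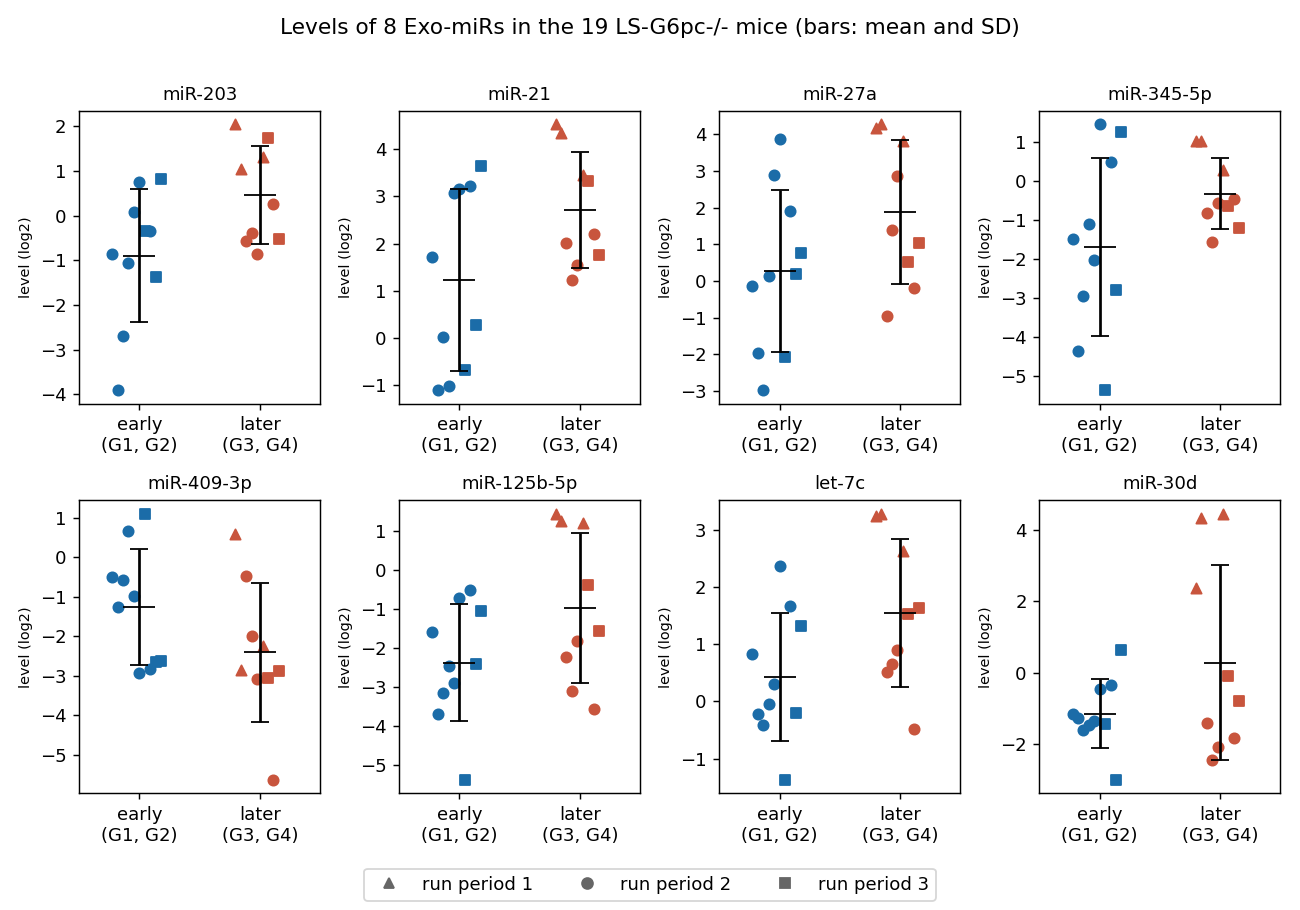
Level (log2, card mean of measured Ct minus Ct) of 8 Exo-miRs in each of the 19 LS-G6pc-/- mice, split into early (10 mice) and later (9 mice), with 1 point per mouse, the marker shape giving the run period and the bars the mean and SD. The groups overlap for all 8, and for miR-30d the 3 triangles of run period 1 (2.38 to 4.46) lie above all other mice.

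The size of these differences moved with the run period. Over the 61 Exo-miRs the median difference was 0.61 in all 19 mice, 0.07 without the 3 cards of run period 1 (33 higher, 54.1%, and 28 lower in later mice), and 0.04 with run period as a block. Within run period 2, with 7 early and 4 later mice, it was -0.75 (11 higher, 50 lower), and within run period 3, with 3 early and 2 later mice, it was 1.38 (60 higher, 1 lower). The median differences of the 2 run periods that held both groups thus had opposite signs, and that contrast itself was not tested. At an adjusted p under 0.05 the number was 0 in limma both without run period 1 and with the block, and 1 Exo-miR, miR-409-3p, was at an unadjusted p under 0.05 in each.

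**Figure D2:**
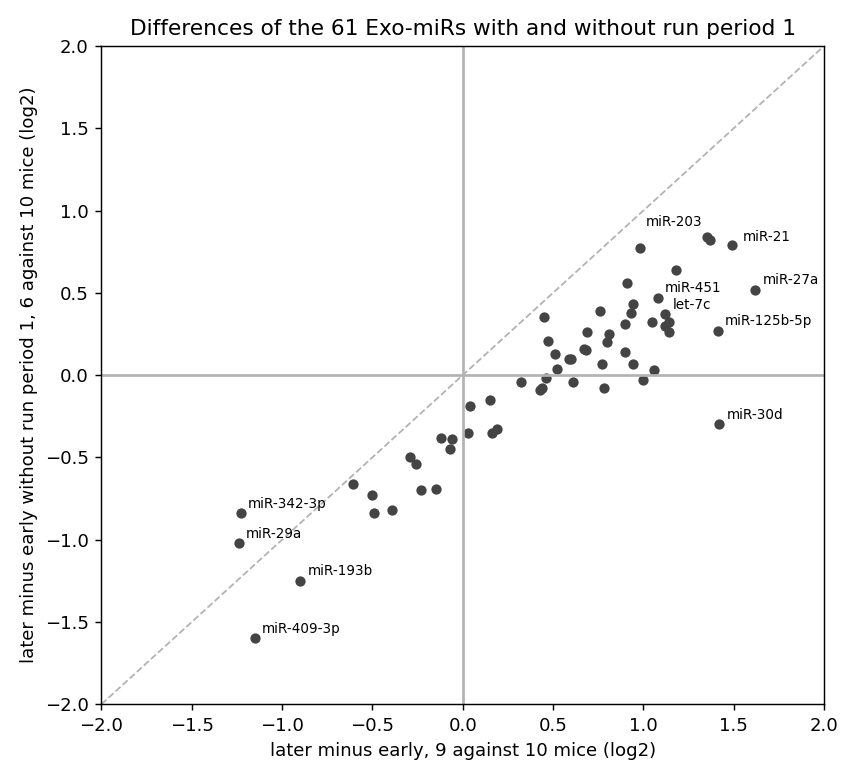
Difference between later and early LS-G6pc-/- mice (log2) of each of the 61 Exo-miRs over all mice (x axis, 9 against 10) and without the 3 cards of run period 1 (y axis, 6 against 10), 1 point per Exo-miR, with the dashed line marking equal values. Most points lie under the line, and miR-30d moves from 1.42 to -0.30, while miR-203, miR-21 and miR-409-3p stay on their side of 0.

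The 3 cards of run period 1 lay above all 16 other cards for 8 of the 61 Exo-miRs, namely let-7b, let-7c, let-7d, let-7e, let-7i, miR-125b-5p, miR-26a and miR-30d. These were chosen after their values were seen. The clearest was miR-30d, of a family found in most tissues, at 2.38 in KO1096, 4.33 in KO1160 and 4.46 in KO1061. In the other 6 later mice it ran from -2.45 to -0.09, and in the early mice from -3.01 over -1.32 to 0.64. Its difference was 1.42 (SE 0.80) with these cards and -0.30 without them. miR-125b-5p, whose genes lie in clusters with let-7 genes, was at 1.21 to 1.44 on the 3 cards, at -3.57 to -0.38 in the other later mice and at -5.38 (imputed, KO1652) to -0.52 in the early mice. Its difference of 1.41 (SE 0.72, p = 0.0594, limma) became 0.27 without run period 1. When the reference was the mean of the 44 wells measured in all 63 mice (40 microRNA assays and 4 wells of U6 RNA), miR-30d and miR-125b-5p still lay above all 16 other cards and miR-484 below them. All 3 mice of run period 1 were older, so for the values of these cards age and run period cannot be told apart.

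The let-7 family, known for its rise during differentiation and for targets in growth and insulin signalling, had 6 retained members of 9 with an assay. All 6 had the higher mean in later mice, with a median difference of 1.02 and a range of 0.90 (let-7g) to 1.14 (let-7d), beside the median of 0.61 over all 61. The median was 0.32 without run period 1, with 5 of 6 higher. Within run period 2 all 6 had the lower mean in later mice, from -1.21 (let-7e) to -0.25 (let-7c), beside 50 of the 61 lower. Within run period 3 all 6 had the higher mean, from 1.55 (let-7d) to 2.65 (let-7g), beside 60 of the 61 higher. let-7c ran from -1.37 over 0.13 to 2.37 in early mice and from -0.48 over 1.52 to 3.28 in later mice. Within run period 2 its difference was -0.25 and within run period 3 it was 1.66. let-7d, let-7b and let-7i had differences of 1.14, 1.05 and 0.94, of which 0.32, 0.32 and 0.07 were left without run period 1. let-7a was measured in 0 of 10 early and 3 of 9 later mice, all 3 of run period 1, and miR-98 in none of the 19.

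The mean level of the 61 Exo-miRs on a card followed the number of measured assays. It ran from -0.10 at 84 assays (KO1652) to 3.17 at 183 assays (KO1160). As a description, Pearson's r was 0.96 and Spearman's rho 0.97 over the 19 mice, and both were 0.92 within run period 2 (n = 11). Leaving out the 2 mice farthest in measured assays gave r of 0.96 over all and 0.74 within run period 2. No test is given, since both measures share the set of wells a card measured: the level holds the mean Ct over those wells. That mean was 28.2 in KO1652 and 25.9 in KO1160, so it was lower on the card with the higher level. By the definition of the level, a lower mean by itself gives a lower level. The reason for the rise was not tested. The members of the reference differed between cards, and the values with the number of measured assays in the fit were those given above. The 40 microRNA assays measured in all 63 mice and the 4 U6 wells are the same on every card, and with these shared wells as reference the median difference was 0.21, with 40 higher and 21 lower in later mice.

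**Figure D3:**
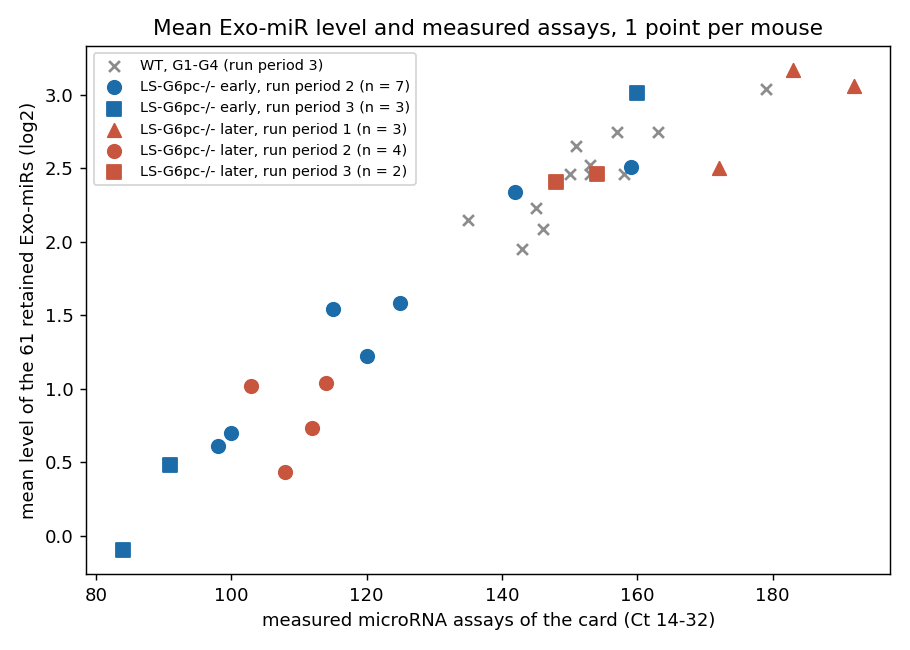
Mean level of the 61 retained Exo-miRs (log2) against the number of measured assays of the card, 1 point per mouse, with colour for early and later LS-G6pc-/- mice, shape for the run period and grey crosses for the 12 WT mice. The number counts measured control wells too, although the axis names microRNA assays. The points rise together from 84 assays at -0.10 to 183 assays at 3.17, and the 3 later mice of run period 1 have the 3 highest numbers of assays of the 19.

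On the scale of the shared wells none of the 61 had an adjusted p under 0.05 (0 called) and 10 (16.4%) were at an unadjusted p under 0.05 (limma). The smallest adjusted p was that of miR-193b, a liver and fat microRNA, at 0.139 with a difference of -1.31, and with run period as a block it was -1.21 (adjusted p = 0.668, limma). On the card-mean scale miR-193b ran from -3.43 over -0.56 to 0.26 in early and from -3.56 over -1.76 to -0.26 in later mice, a difference of -0.90 (SE 0.57). The later mean was the lower on both scales, although within run period 3 on the card-mean scale it was the higher by 0.40. Of the 10 at an unadjusted p under 0.05, the other 3 lower in later mice were miR-484 at -1.01, miR-320 at -0.90 and miR-191 at -0.55. The 6 higher were miR-125b-5p at 1.13, miR-21 at 1.08, miR-203 at 0.94, miR-26b at 0.77, let-7d at 0.74 and let-7c at 0.71. miR-409-3p, at -1.69 (p = 0.0683, limma), was not among the 10.

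miR-29a and miR-342-3p had the most negative differences of the 61. miR-342-3p, from an intron of Evl and abundant in lymphocytes, ran from -4.05 over 0.60 to 2.65 in early and from -5.86 over -1.76 to 2.74 in later mice, a difference of -1.23 (SE 0.94, p = 0.201, limma). Its lowest value, in KO1496, was imputed, and with the missing value left out the difference was -0.64 (p = 0.462, limma). miR-29a, known for targets among collagen messenger RNAs, ran from -4.47 over 0.80 to 3.34 and from -5.47 over -0.60 to 3.47, a difference of -1.24 (SE 1.04). Its lowest value was imputed in KO1496 and KO1510, and with missing values left out the difference was 0.13, so its sign rests on these 2 mice. Within run period 3 both were higher in later mice, by 1.59 and 1.16.

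Lists of microRNAs by known source gave no member at an adjusted p under 0.05. Of the red cell list all 4 members with an assay were retained, with a median difference of 0.12: miR-451 and miR-92a had the higher mean in later mice, and miR-16 (-0.07) and miR-486 (-0.29) the lower. Of the leukocyte list 5 of 7 were retained, with a median of 0.04, miR-142-3p at 0.94 and miR-223 of myeloid cells at 0.43, beside miR-146a at 0.04, miR-150 of lymphocytes at -0.12 and miR-342-3p at -1.23. Of the platelet and endothelium list all 5 were retained, with a median of 0.44. They were miR-21 at 1.49, miR-126-5p at 0.81, miR-24 at 0.44, miR-191 at -0.15 and miR-126-3p of endothelium at -0.39. The 2 strands of the miR-126 hairpin thus had differences of opposite sign, with standard errors of 0.68 and 0.70. Without run period 1 the medians of the 3 lists were -0.24, -0.19 and -0.08, beside 0.07 over all 61.

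The liver list had 4 assays, of which miR-192 was retained, at 1.24 ± 1.48 (SD, n = 10) in early and 1.69 ± 0.64 (n = 9) in later mice, a difference of 0.45 (SE 0.58). miR-122, which dominates the microRNA pool of hepatocytes, had a measured Ct in 8 of 10 early and 9 of 9 later mice, miR-194 in 9 and 8, and miR-148a in 8 and 9. miR-145 of smooth muscle differed by 0.77 and miR-133a of muscle by 1.06, of which 0.07 and 0.03 were left without run period 1. Of the brain list miR-124 was measured in 0 of the 19 mice, miR-9 in 2 early and 4 later, and miR-128a in 6 and 5.

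The miR-17 list, from 3 related polycistronic clusters that are active in dividing cells, had 10 retained of 11 members, 9 of them with the higher mean in later mice and a median of 0.68. Over all 61 Exo-miRs 46 (75.4%) had the higher mean, with a median of 0.61, so the list lay near the whole. miR-106b differed by 1.14, miR-19a by 0.91 and miR-19b by 0.76, while miR-106a differed by -0.23. The median of this list was 0.15 without run period 1, beside 0.07 over all 61. Of the 5 members of the miR-30 list 4 had the higher mean, with miR-30b at 0.68, miR-30c at 0.69 and miR-30e at -0.26. The median of the miR-30 list was 0.68, or 0.15 without run period 1, beside the same 0.61 and 0.07 over all 61. In the miR-15 list miR-15b differed by 0.78, miR-195 by 0.15 and miR-16 by -0.07. miR-222, with the same seed as the unretained miR-221, differed by -0.06.

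Of the 23 microRNAs that the study names in its comparisons and time course, chosen on samples that include these mice and therefore no independent evidence, 14 had the higher mean in later mice, with a median of 0.45, and 0 passed. Over all 61 the higher mean was in later mice for 46 (75.4%), with a median of 0.61. Among those not given above, miR-139-5p differed by -0.50 and miR-744 by 0.47. The lowest miR-744 level, -4.00 in KO1731, was imputed, and with the missing value left out the difference was 0.08. Without run period 1 the median over the 23 was -0.08, with 11 higher, beside 0.07 and 33 higher over all 61.

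The 4 age groups were then compared without pooling. By the F test of limma 0 of 61 passed at an adjusted p under 0.05 (0.0%) and 9 (14.8%) were at an unadjusted p under 0.05, the smallest adjusted p being 0.285. miR-203 had a mean of -2.13 ± 1.44 (SD, n = 4) at 1-3 months, then -0.07 ± 0.82 (n = 6), 0.25 ± 1.23 (n = 5) and 0.69 ± 1.02 (n = 4) at the following ages. Its step from 1-3 to 4-6 months was 2.06 (p = 0.0153, adjusted p = 0.416, limma), larger than the later steps of 0.33 and 0.43.

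miR-21 and miR-27a had the same shape, with their lowest means at 1-3 months. miR-21 stood at -0.10, 2.11, 2.74 and 2.69 over the 4 age groups, and miR-27a at -1.23, 1.26, 2.35 and 1.29. Their steps from 1-3 to 4-6 months were 2.21 and 2.49 (adjusted p = 0.416 for each, limma). miR-328, expressed in several tissues, was at -0.05, 2.41, 1.35 and 2.66, with a step of 2.46 between the youngest ages (adjusted p = 0.241, limma). For these 4 Exo-miRs the 1-3 month mice, all of run period 2, had the lowest mean of the 4 age groups.

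miR-342-3p had another shape, with 0.75 ± 0.54 (SD, n = 4) at 1-3 months, -0.35 ± 2.58 (n = 6), -2.91 ± 2.11 (n = 5) at 7-9 months and 1.07 ± 2.19 (n = 4) at 10-12 months. Its step from 7-9 to 10-12 months was 3.98 (p = 0.00192, adjusted p = 0.117, limma), and its F test gave p = 0.0065 (adjusted p = 0.285). Without KO1061, a mouse of 10-12 months of run period 1, that adjusted p was 0.0489, and miR-342-3p was then the 1 Exo-miR to pass. KO1061 was the only mouse of that age with a low level, and the others of that age lay at 1.02 to 2.74. Whether age or the card set the low levels was not tested. The later group thus held both the age with the lowest and the age with the highest mean. Low here means -5.86 to -1.76, and the LS-G6pc-/- mice outside this range lay at -0.65 to 2.74. The low cards were KO1508 and KO1536 at 4-6 months and KO1061 at 10-12 months. At 7-9 months they were KO1096, KO1160, KO1496 and KO1510, and none was of 1-3 months. Each mean thus depended on how many of these cards its age group held. On the scale of the shared wells, miR-27a lay at -0.78 to 1.21 on these cards and at -4.96 to -1.42 on the other LS-G6pc-/- cards. The low cards were of run periods 1 and 2, and the split was chosen after its values were seen. Its source was not tested.

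With the shared wells as reference, the F test called 3 Exo-miRs over the 4 age groups, and 27 were at an unadjusted p under 0.05 (limma). miR-574-3p, which was chosen after its values were seen, as were miR-193b and miR-320 in this comparison, had its highest mean at 1-3 months. Its 4 youngest mice had levels of -2.68, -2.44, -1.51 and -0.99, and the 15 older mice had levels of -4.90 to -2.93, so the youngest lay apart from all others. The means were -1.91 ± 0.79 (SD, n = 4), -3.83 ± 0.62 (n = 6), -3.57 ± 0.40 (n = 5) and -3.27 ± 0.29 (n = 4), with an adjusted p of 0.0231 in limma, 0.0272 with run period as a block and 0.0633 without run period 1. All 4 of the youngest mice were of run period 2, in which the other 7 mice had levels of -4.90 to -3.26.

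miR-193b stood at -2.86 ± 0.85 (SD, n = 4), -3.92 ± 0.76 (n = 6), -5.21 ± 0.34 (n = 5) and -4.30 ± 0.72 (n = 4) on this scale, with an adjusted p of 0.0231 in limma and 0.0669 with run period as a block. miR-320, which is processed without Drosha, stood at 0.54 ± 0.99 (SD, n = 4), -0.92 ± 0.60 (n = 6), -1.15 ± 0.34 (n = 5) and -1.35 ± 0.19 (n = 4), with an adjusted p of 0.0297 in limma and 0.0669 with the block. The adjusted p was 0.117 for each of these 2 without run period 1. The 3 were thus highest in the youngest mice on this scale. On the card-mean scale none of the 3 passed, and miR-574-3p ran from -0.56 to 1.91 at 1-3 months and from -1.86 to 0.86 at the other ages, so the ranges overlapped there. Without the U6 wells the reference let 4 pass, these 3 and miR-16 (adjusted p = 0.0313, limma).

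**Figure D4:**
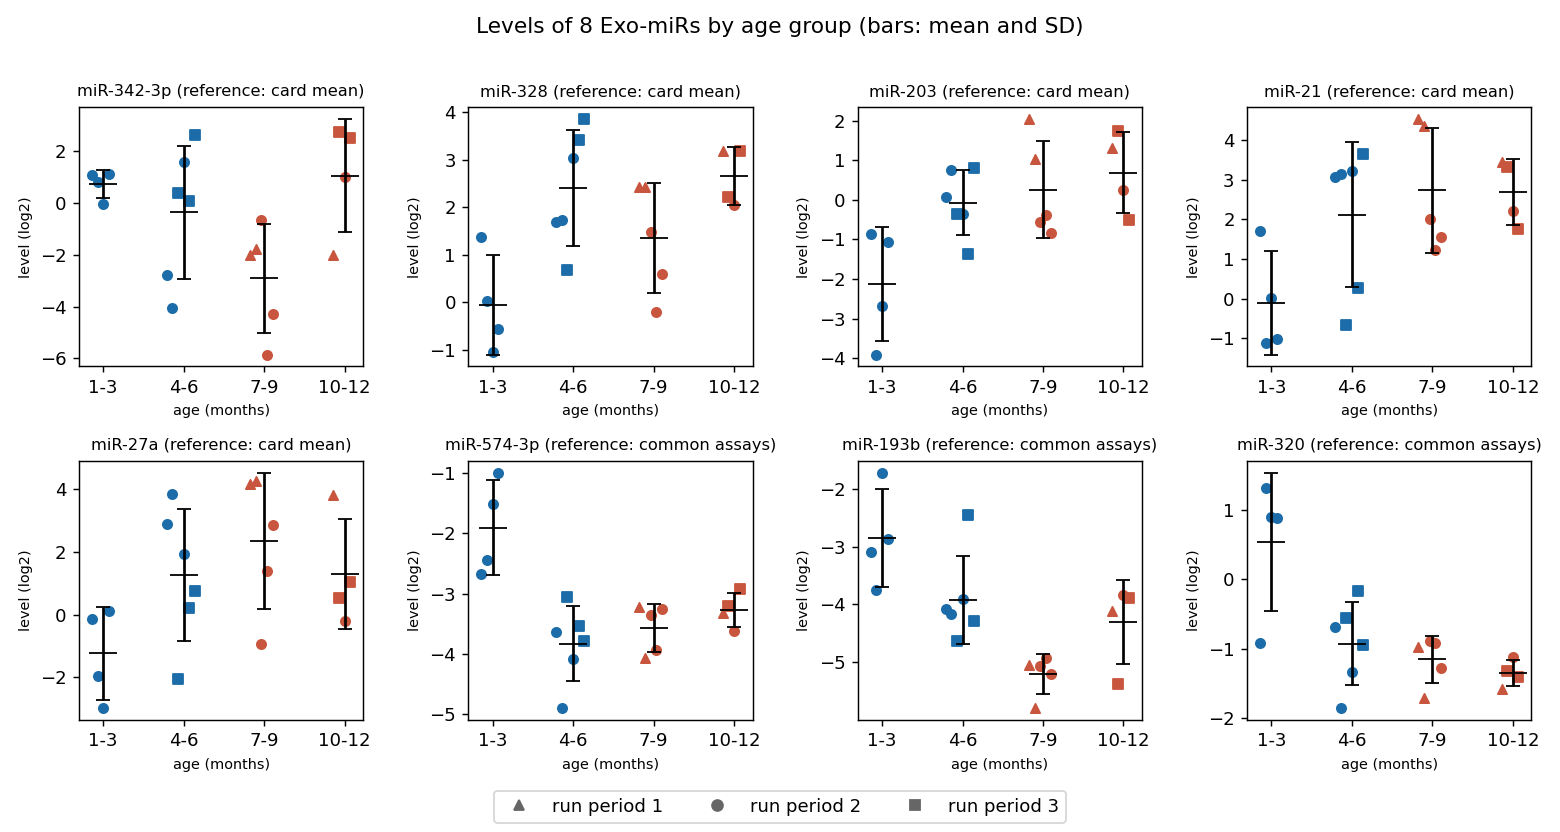
Level (log2) of 8 Exo-miRs in the 19 LS-G6pc-/- mice by age group in months, 1 point per mouse, shape giving the run period and bars the mean and SD. The 5 with the smallest p in the F test are on the card-mean scale, and miR-574-3p, miR-193b and miR-320 are on the scale of the shared wells, where the 4 youngest mice have miR-574-3p levels of -2.68 to -0.99 above all others.

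The WT mice of the same ages gave the change with age in the absence of the deletion. Their later means were higher for 23 of 61 Exo-miRs (37.7%) and lower for 38, with a median difference of -0.12. The limma fit held both genotypes, so its residual variance was shared with the 19 LS-G6pc-/- mice. How many Exo-miRs would pass on the spread of the WT mice alone was not tested. In the shared fit 0 passed at an adjusted p under 0.05, with 1 at an unadjusted p under 0.05 (limma). That was miR-192, a liver and kidney microRNA, at 0.65 ± 0.63 (SD, n = 6) in early and 2.44 ± 1.04 (n = 6) in later WT mice. The difference was 1.79 (p = 0.00727, adjusted p = 0.443, limma), against 0.45 in LS-G6pc-/- mice. The difference of the 2 changes was tested itself, and 0 of 61 passed (0.0%), the smallest adjusted p being 0.621, with 1 at an unadjusted p under 0.05 (limma).

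miR-125b-5p had the smallest p of this test. In WT mice it was at -0.46 ± 0.45 (SD, n = 6) in early and -1.34 ± 0.54 (n = 6) in later mice. Its change in LS-G6pc-/- mice exceeded that in WT mice by 2.30 (SE 0.98, p = 0.0249, adjusted p = 0.621, limma). miR-328 followed with 1.76 (SE 0.95, adjusted p = 0.621) and miR-142-3p, a microRNA of the blood lineages, with 1.72 (SE 0.93, adjusted p = 0.621, limma). The levels of miR-142-3p were 2.62 ± 1.75 and 3.56 ± 1.20 in early and later LS-G6pc-/- mice, and 4.67 ± 0.57 and 3.89 ± 0.99 in WT mice. All WT cards were of run period 3, in which 3 early and 2 later LS-G6pc-/- mice were run, so the spread between run periods entered the change of 1 genotype alone. Without run period 1 the change in LS-G6pc-/- mice exceeded that in WT mice by a median of 0.12, with 0 of 61 at an adjusted p under 0.05 and 0 at an unadjusted p under 0.05 (limma). The WT cards had 156.5 ± 12.8 measured assays in early (SD, n = 6) and 149.0 ± 8.7 in later mice (n = 6), a difference of -7.5 (p = 0.29, exact permutation test).

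Assays outside the 61 were compared by whether they were measured at all. Of the 105 assays measured in at least 3 and not measured in at least 3 of the 19 mice, 0 passed (0.0%, two-sided Fisher's exact test, smallest adjusted p = 0.722) and 3 (2.86%) were at an unadjusted p under 0.05. The share of mice with the assay measured was larger in later mice for 89 of the 105 (84.8%) and smaller for 16, and without run period 1 it was larger for 45 of 87.

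miR-29c, with the seed of miR-29a, was measured in 4 of 10 early and 9 of 9 later mice (p = 0.0108, adjusted p = 0.722, Fisher's exact test) and in all 12 WT mice. Within run period 2 these were 3 of 7 early and 4 of 4 later mice, and within run period 3 they were 1 of 3 and 2 of 2, so the later share was larger in each. miR-197 was measured in 5 of 10 and 9 of 9 (p = 0.0325, adjusted p = 0.722, Fisher's exact test). miR-214, a microRNA of stellate cells and fibroblasts, was measured in 0 of 10 early and 4 of 9 later mice (p = 0.0325, adjusted p = 0.722, Fisher's exact test), 3 of them of run period 1, and in 4 of 6 early and 4 of 6 later WT mice. miR-141 of epithelia and miR-340-3p were each measured in 1 of 10 early and 5 of 9 later mice (p = 0.0573, adjusted p = 0.722, Fisher's exact test), with all 3 mice of run period 1 among the 5. The assays rno-miR-327 (4 of 10 early and 8 of 9 later mice) and rno-miR-532-5p (1 of 10 and 5 of 9) tied with them at the same p. The 3 cards of run period 1 thus held these assays throughout, and the part of their depth in these shares was not tested.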

How the data were processed

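Plasma exosome microRNA was measured on TaqMan array cards, 1 card per mouse. The authors deposited a raw Ct for each well and a normalized table on the log2 scale, in which the mean of the measured Ct of a card was subtracted from each Ct. Ct is itself a negative log2 scale. A card held 384 wells (375 microRNA assays, 9 control wells, 4 of them U6), and a well with no Ct was listed as 40.

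Here a Ct of 14-32 counted as measured, and the level was the mean measured Ct of the card, control wells included, minus the Ct. With the sign turned, it differed from the deposited normalized values by at most 0.0275. The 61 Exo-miRs missing in at most 5% of 63 mice were kept, and a missing value was set 1 below the lowest level of that Exo-miR. Early and later mice, the 4 age groups and the change by genotype were fitted with limma 3.58.1 (R 4.3.3) in place of the rank-based and time-course tools of the study, with Benjamini-Hochberg adjustment over the 61 and a threshold of 0.05. Single values were compared with exact permutation tests and detection with Fisher's exact test (scipy 1.17.1). The scripts were tested on simulated data. Mature sequences were matched by name to RefSeq (49 of 61), reading a plain assay name as the unstarred strand.

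Named Exo-miRs were the 10 with the smallest p, the 10 with the largest difference, the 5 and 3 with the smallest p over age groups and in the genotype comparison, the 5 assays with the smallest p in detection, up to 3 members of each list and those the study names. Short lists were given in full, and other names were chosen after their values were seen. The members and lists were chosen with earlier results of these data known. Mice of a group were separate animals. The number of cards limits the precision.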

Additional observations from a re-analysis of the deposited data

Results flagged for a closer look

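Over 100 groups of mice were examined for a value far from the rest, and 1 had such a value. Chance alone flags about 1 in 20 groups, here about 5.3, so this is fewer than chance gives. The mean measured Ct of the early card KO1536 was 26.31, and the nearest of the other early cards had 27.27, a gap of 0.48 of the group's range. KO1536 had 159 measured assays.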

How the results depend on the processing

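No Exo-miR differed between early and later mice at an adjusted p under 0.05 under any alternative, by limma, the exact permutation test or the methods' unpaired test. By an unadjusted p under 0.05 together with an absolute difference over 0.58, 2 did. Array weights came nearest, with a smallest adjusted p of 0.0505 and 29 of 61 at an unadjusted p under 0.05. That number was 11 of 83 with Ct to 35, 12 as a slope over age groups, 10 within run period 2, 10 with the shared wells, 6 with quantile normalization, 5 with measured assays as a covariate (median difference -0.19, 18 of 61 higher in later mice), 5 of 86 at up to 20% missing, 5 with age groups fitted, and 0 with U6, the card median, run day as a random block or within run period 3. With a mouse left out the median difference ran from 0.44 to 0.82. Over the 4 age groups 3 passed with the shared wells, 2 (miR-193b and miR-574-3p) with measured assays as a covariate, 4 with the 40 microRNA assays alone, 1 with the shared wells and run period as a block, and 0 to 1 with a mouse left out. The difference in measured assays was -13.5 within run period 2, 39.3 within run period 3 and 17.3 to 28.5 with a mouse left out. In detection, 1 to 7 assays were at an unadjusted p under 0.05 with a mouse left out, 0 without cards of under 100 assays, and 1 of 87 without run period 1. The cause of these shifts was not tested. Within run period 2 or 3, leaving out 1 mouse turned the sign for miR-203, miR-25, miR-26b, miR-27a, miR-345-5p and miR-451, and not for miR-21 or miR-409-3p. The settings without run period 1, within a run period with a mouse left out, with the 40 microRNA assays alone, and with the shared wells combined with another choice were chosen after seeing the data.

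Of 978 values of the 40 named Exo-miRs under 25 alternatives, 888 kept their direction and 90, of 32 Exo-miRs, turned it, none at an adjusted p under 0.05. The exact permutation test, the methods' unpaired test and the fit on all 63 mice used the same difference of means. Their values are among the 888 and could not turn. The deposited normalized values, also among the 25, differed from the levels used here by at most 0.0275. With 4 age groups fitted and their means contrasted, the turned value was miR-150 at 0.03. With array weights, the turned values were miR-106a at 0.37, miR-139-5p at 0.12, miR-150 at 0.48 and miR-30e at 0.22. With the shared wells and run period as a block, the turned values were miR-15b at -0.07, miR-195 at -0.12, miR-223 at -0.07, miR-24 at -0.05, miR-30d at -0.27 and miR-92a at -0.03. With the 40 microRNA assays alone as reference, the turned values were miR-192 at -0.01, miR-195 at -0.31, miR-223 at -0.02, miR-24 at -0.02 and miR-92a at -0.14. With measured assays as a covariate, the turned values were let-7i at -0.21, miR-126-5p at -0.01, miR-133a at -0.08, miR-142-3p at -0.04, miR-145 at -0.14, miR-15b at -0.32, miR-195 at -0.50, miR-19b at -0.06, miR-223 at -0.35, miR-24 at -0.32, miR-30b at -0.07, miR-30c at -0.06, miR-328 at -0.06, miR-744 at -0.33 and miR-92a at -0.24. With missing values left out, the turned value was miR-29a at 0.13. With quantile normalization, the turned values were miR-192 at -0.15, miR-195 at -0.34, miR-328 at -0.04 and miR-744 at -0.24. With U6 as reference, the turned values were miR-16 at 0.02 and miR-222 at 0.03. With the shared wells as reference, the turned values were miR-195 at -0.26 and miR-92a at -0.09. With run period as a block, the turned values were miR-145 at -0.02, miR-15b at -0.12, miR-195 at -0.16, miR-223 at -0.12, miR-24 at -0.09, miR-30d at -0.32 and miR-92a at -0.08. As a slope over the age groups, the turned values were miR-139-5p at 0.14 and miR-150 at 0.19. Within run period 2, the turned values were let-7b at -0.53, let-7c at -0.25, let-7d at -0.30, let-7i at -0.78, miR-106b at -0.08, miR-125b-5p at -0.54, miR-126-5p at -0.26, miR-133a at -0.59, miR-142-3p at -0.26, miR-145 at -1.13, miR-15b at -0.83, miR-195 at -0.80, miR-19a at -0.13, miR-19b at -0.19, miR-223 at -1.10, miR-24 at -0.65, miR-30b at -0.49, miR-30c at -0.48, miR-30d at -0.85, miR-744 at -0.65 and miR-92a at -0.53. Within run period 3, the turned values were miR-106a at 0.28, miR-139-5p at 0.86, miR-150 at 1.47, miR-16 at 0.82, miR-222 at 1.11, miR-29a at 1.16, miR-30e at 1.00, miR-342-3p at 1.59 and miR-486 at 1.39. Without cards of under 100 measured assays, the turned values were miR-192 at -0.25, miR-195 at -0.33, miR-223 at -0.09, miR-24 at -0.03 and miR-744 at -0.34. Without run period 1, the turned values were miR-15b at -0.08, miR-195 at -0.15, miR-223 at -0.09, miR-24 at -0.08, miR-30d at -0.30 and miR-92a at -0.04. With a mouse left out, miR-106a ran from -0.40 to 0.02, miR-150 from -0.37 to 0.12, miR-16 from -0.34 to 0.12, miR-195 from -0.05 to 0.38, miR-222 from -0.29 to 0.09 and miR-30e from -0.48 to 0.06. No paired analysis was possible because the animals of the compared groups are all different and replicate numbers only name them.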
